A study of Homo sapiens with 6 samples.

Results

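The transcripts of 2 human cell lines were compared here, with 2 libraries labelled HT-29 stimulated with interferon-γ (IFN-γ) on one side and 2 labelled MCF10A on the other, which makes 4 of the 6 libraries of the series. The members were chosen by label alone and the comparison covers all genes. HT-29 is a colon adenocarcinoma line, labelled as colon and grown in McCoy's 5A with 10% fetal bovine serum under 5% CO2, and its label gives 200 U/ml IFN-γ for 24 hours. MCF10A is a non-tumorigenic mammary epithelial line, grown in DMEM/F12 with 5% horse serum, EGF at 20 ng/ml, hydrocortisone at 500 ng/ml, cholera toxin at 100 ng/ml and insulin at 10 µg/ml. The other 2 libraries are labelled MDA-MB-436, a breast cancer line, grown in L-15 with 10% fetal bovine serum and no CO2; they entered the model only through the shared estimate of spread and the filter on low values, and are quoted where they bear on a label. Each line has a library labelled 25M reads and a deeper one, and for the deeper MCF10A library the title (100M) and the sample type (50M) differ. Total RNA was sequenced as paired reads of 50 bases. HT-29 without IFN-γ was not analysed here, and line, medium and treatment cannot be told apart. The labels do not say whether the libraries of a line were separate cultures, so every p-value rests on how far the 2 libraries of a line differ, and that difference may be technical only.

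Mammary epithelium has a basal layer, anchored to the basement membrane and marked by keratins and the transcription factor p63, and a luminal layer; MCF10A cells in culture carry many basal and stratified epithelial genes. Intestinal epithelium is defined by the brush border protein villin, the transcription factor CDX2, keratin 20 and E-cadherin. Cells that leave the epithelial state lose E-cadherin together with junctional, apical and epithelial splicing factors, and mesenchymal cells instead express N-cadherin, ZEB1 and matrix proteins. IFN-γ induces IRF1, the class II transactivator CIITA and the guanylate binding proteins.

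The marker genes went against the label. In the text that follows a pair of values gives the normalised count of the 25M library first and that of the deeper library after it. VIL1, which encodes villin, was 0 in both libraries labelled HT-29, and 2054 and 2198 in the libraries labelled MDA-MB-436. CDX2, the intestinal regulator, was likewise 0 in both libraries labelled HT-29 and 194 and 182 in those labelled MDA-MB-436. CDH1, which encodes E-cadherin, was 4.5 and 3.83 in the libraries labelled HT-29, against 5307 and 5324 in MCF10A and 22793 and 22477 in those labelled MDA-MB-436. The 2 intestinal markers were thus at 0 where the label names a colon line, and E-cadherin there was near 0. KRT20, keratin 20 of differentiated intestinal cells, was 0 and 0.547 in the libraries labelled HT-29 and 29900.0 and 30880.0 in those labelled MDA-MB-436. VIM, the mesenchymal filament vimentin, was 36599 and 35267 in the libraries labelled HT-29, against 25901 and 26246 in MCF10A and 16.5 and 7.39 in those labelled MDA-MB-436. CDH2, which encodes N-cadherin, was 4553 and 4446 in the libraries labelled HT-29, against 73 and 69.7 in MCF10A and 0 and 0.616 in those labelled MDA-MB-436. VIM did not differ enough between the 2 lines compared to be called (log2 fold change 0.46 ± 0.38 (SE), limma's adjusted p = 0.32). Its SE and p-value rest on a spread shared by all 6 libraries. The values near 0 in those labelled MDA-MB-436 lay further apart on the log scale than those within either line compared. The fold change of VIM alone was short of a call. CDH2 was 63.6-fold higher in the libraries labelled HT-29. Of 11 tested members of the epithelial and mesenchymal list (of 11 listed) 2 were higher and 6 lower than in MCF10A. Of the 9 with a mean of 10 in both lines, 2 were higher and 4 lower. The 2 higher were CDH2 and ZEB1, so the mesenchymal members VIM and FN1 were not called higher. Of 11 tested members of the intestinal list (of 13 listed) 1 was higher and 1 lower than in MCF10A. The number of these with a mean of 10 in both lines was 0. LGALS4, an intestinal galectin, was 3 and 4.38 in the libraries labelled HT-29 and 0 and 1.96 for MCF10A, on few reads, against 31569 and 33856 in those labelled MDA-MB-436; it was called higher than in MCF10A (log2 fold change 1.43, limma's adjusted p = 0.019), but edgeR (adjusted p = 0.149) and DESeq2 (0.126) did not call it, nor did limma without the 25M (0.0692) or without the deeper library (0.145) labelled HT-29. On these markers the labels HT-29 and MDA-MB-436 read as exchanged. The labels are kept as given, "labelled HT-29" is written throughout, and no difference below is assigned to colon cells or to IFN-γ. Levels in the libraries labelled MDA-MB-436 are set beside the others as values, with no test.

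**Figure D1:**
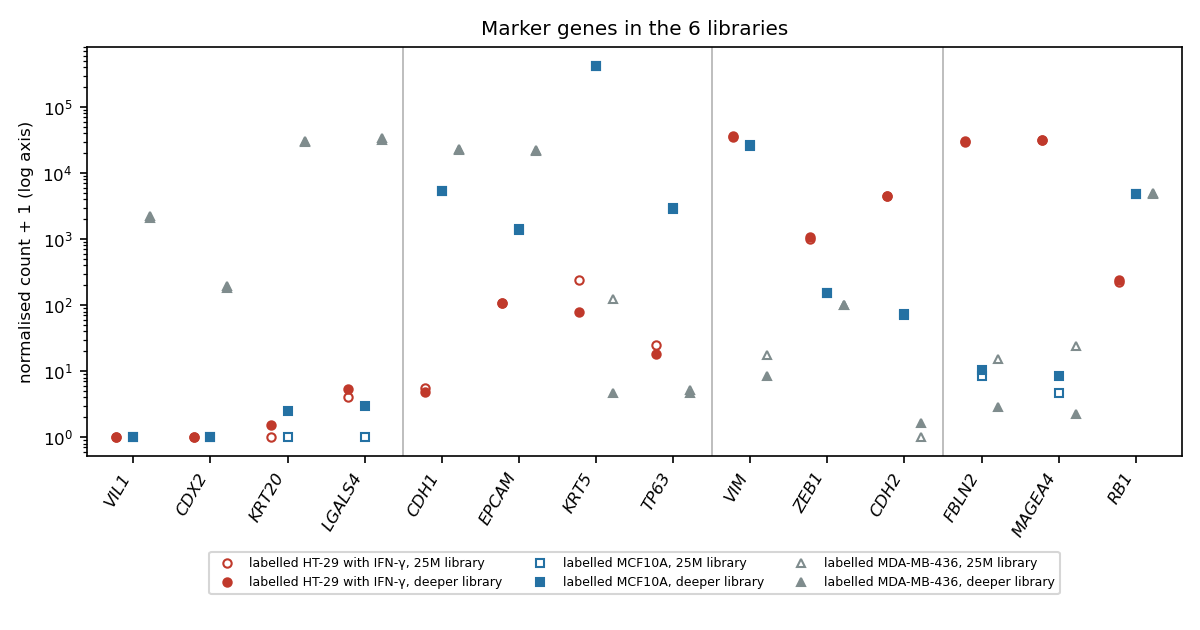
Normalised count plus 1 (log axis) of 14 marker genes in the 6 libraries, with open symbols for the 25M library and filled symbols for the deeper one of each line. In the 4 libraries compared VIL1 and CDX2 lie at 0, and CDH1 is below 5 in those labelled HT-29 against 5307 and 5324 in MCF10A.

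Whole reads could be recovered from the normalised counts, and the 4 libraries held 18.4 and 50.2M reads (labelled HT-29) and 18.3 and 69.5M reads (MCF10A). A gene was called when limma's adjusted p was under 0.05 and the log2 fold change, on the log2(normalised count + 1) scale, was at least 1 in size. Of 15638 genes tested 7265 were called (46.5%), with 4442 higher (28.4%) and 2823 lower (18.1%) in the libraries labelled HT-29, and every called gene had libraries that did not overlap. The median log2 fold change was 0.13, and the median SE of a gene was 0.0718 with 3 residual degrees of freedom. Of the 4442 higher genes 574 had no read in MCF10A, and of the 2823 lower genes 82 had no read in the libraries labelled HT-29. Scaling by library size alone, on the same scale, raised the median log2 fold change of all genes from 0.13 to 0.43 and the share of higher genes among the calls from 61.1% to 72.9%, so small differences are read relative to that shift. Counts of a gene group are over the members that passed a filter of 10 normalised counts in at least 2 libraries, with the number listed in parentheses. A member that passed only through the line where it was high had to differ, so counts over members with a mean of 10 or more in both lines are given too, in the parentheses as "in both lines" or in the sentence; over all genes these were 12545, with 2419 higher and 2292 lower. With only genes of at least 10 CPM in 2 libraries the calls were 2209 higher and 2181 lower (50.3% higher), so the surplus of higher genes lay among genes of low level. A fold in the text is the ratio of the reads summed over a line's 2 libraries, divided by their size factors; where a line had no read it is a lower bound against a floor of 3 reads over the line, and with 1 to 3 reads a 95% counting interval follows in parentheses, which covers counting error only. Low reads of very abundant MCF10A genes are given as a description, since the deeper library was used to choose the genes. For 7 genes chosen because they were over 20000 in MCF10A and over 1000 times higher there than in the deeper library labelled HT-29, the median level was 0.0412% of MCF10A in the 25M library and 0.0100% in the deeper one; among them KRT14, a basal keratin, was 91.5 and 2.74 against 225570.0 and 219000.0 in MCF10A. Their part in the lowest values below was not tested.

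The most abundant genes with the largest differences already named several of the groups that follow. The 12 highest were FBLN2 (the matrix protein fibulin 2), BCAT1, CDKN2A, ARMCX3, BHMT2, the cancer-testis antigens MAGEA4 and MAGEA10, ARMCX1, COL5A1, GYPC, IGFN1 and NPTX2. FBLN2 was 30897 and 30042 in the libraries labelled HT-29 and 7.49 and 9.33 in MCF10A, 3384-fold higher with a log2 fold change of 11.67 ± 0.78 (SE) and limma's adjusted p of 4e-05. MAGEA4 was 32084 and 31452 against 3.75 and 7.36, 4782-fold higher. NPTX2, a secreted pentraxin that gathers glutamate receptors at synapses, was 2426 and 2482 against 0 in both MCF10A libraries, at least 2114-fold higher. The 12 lowest were KRT14, KRT81, KRT6A, S100A14, SPRR1B, KRT5, TNS4, ST14, DSG3, MIR205HG, MPZL2 and SCEL among which are keratins, a desmosomal cadherin and cornified envelope genes. DSG3, a desmosomal cadherin of basal layers, was 3 and 1.64 against 10462 and 10884, 5386-fold lower. MIR205HG, the host transcript of miR-205, was 1.5 and 0 against 6618 and 6652, a ratio of 16575-fold (2974 to 654700.0). Reads of near-identical keratin and SPRR genes could be shared between copies.

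**Figure D2:**
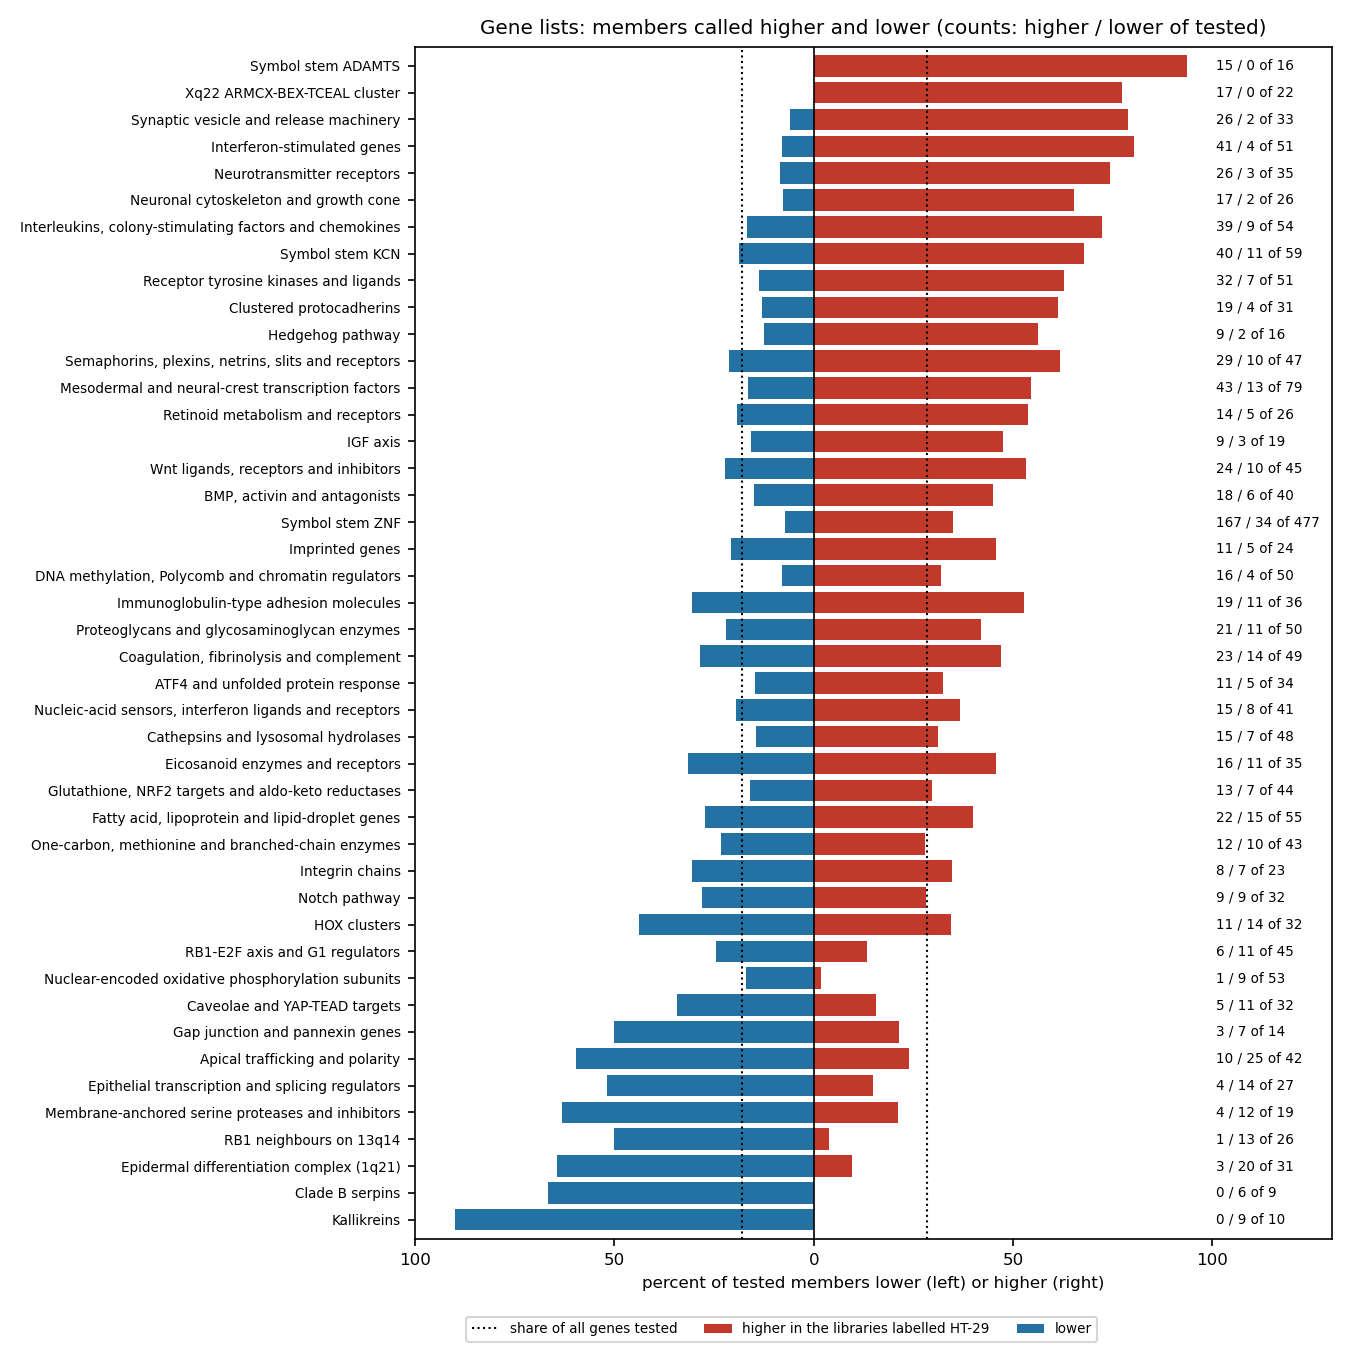
Percent of the tested members of gene groups called higher (right, red) or lower (left, blue) in the libraries labelled HT-29 than in MCF10A, with the counts at the right edge and dotted lines at the shares of all genes tested, 28.4% and 18.1%. ADAMTS, Xq22, synaptic and interferon groups lie at the top and kallikreins, clade B serpins and the epidermal differentiation complex at the bottom. The marker lists and the genes with GALNT, TSPAN, GPR, ARHGAP, ARHGEF and UGT symbols are not drawn. Their higher and lower shares were 28.6% and 28.6% (GALNT), 33.3% and 22.2% (TSPAN) and 43.1% and 25.5% (GPR). For ARHGAP they were 32.3% and 25.8%, for ARHGEF 27.3% and 31.8%, and for UGT 0% and 33.3%.

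Regulators of the epithelial state were mostly lower, yet a few were higher. Of 27 (of 30 listed) tested members 14 were lower and 4 higher (median log2 fold change -2.53, against 0.13 over all genes); of the 19 with a mean of 10 in both lines, 10 were lower and 4 higher. The splicing regulators ESRP1 and ESRP2, which set epithelial exon choice, were both lower. ESRP1 was 19.5 and 24.6 in the libraries labelled HT-29 and 4234 and 4172 in MCF10A, 180.0-fold lower. ESRP2 was 9 and 7.66 against 2947 and 3002, 373-fold lower with a log2 fold change of -8.32 ± 0.0847 (SE) and limma's adjusted p of 2.1e-10. TP63, the gene of p63, was 24 and 17.5 against 2835 and 2981, 153-fold lower. The 4 higher members were KLF4, ELF3, TP73 and, named after its value was seen, TFAP2C. KLF4, a factor of differentiating epithelia, was 3719 and 3740.4 against 440.1 and 459, 8.21-fold higher. ELF3, an epithelium-specific ETS factor, was 2151 and 2142 against 489 and 481, 4.45-fold higher, so not every epithelial factor went the way of E-cadherin. GRHL2, the grainyhead factor that holds CDH1 active, was near 0 in both lines (1.5 and 0.547 against 0 and 0.491), where no difference was detectable.

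Apical sorting and polarity genes followed, with 25 lower and 10 higher of 42 (of 42 listed) (median -1.64); among the 30 that reached a mean of 10 in both lines the counts were 19 and 4. LAD1, ladinin of the basement membrane zone and actin filaments, was 43.5 and 43.8 against 18733 and 17955, 415-fold lower. CRB3, the Crumbs protein of the apical membrane, was 6 and 8.21 against 657 and 642, 84.7-fold lower. RAB17, a small GTPase of epithelial recycling endosomes, was 1.5 and 0 against 491 and 468. All 3 were separated from MCF10A without overlap, as was every called gene. CGNL1, the junctional protein paracingulin, went the other way with 594 and 535 against 1.87 and 1.96, 283-fold higher.

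ZEB1, a repressor that binds E-boxes in epithelial promoters, was 1002 and 1062 in the libraries labelled HT-29 and 154 and 153 in MCF10A, 6.83-fold higher. The letters CACCTG, or CAGGTG on the other strand, were searched in promoter windows of the 39 lower members of these 2 groups. The windows are from RefSeq (GRCh38.p14) and run from 250 bases before to 50 after the start. Members that were higher or not called were not searched, and a part of ZEB1 in the lower values was not tested. Of the 39 members 25 had a window (64.1%) and 17 had exactly 1 (43.6%). Only those 17 were counted, of which 10 held the letters and 7 did not. As 80% of members would be needed, no share of the group is given. Over all 35116 windows, those of genes with several windows included, 20.6% held the letters and 3.49% held them at least 2 times. The upstream 250 bases of the 4 members with 1 window, at least 2 matches and a fall of at least 8-fold are shown because they hold repeated matches, and they were chosen after their values were seen; capitals mark the matches, which are a description and not a site of binding. They lie, in the order printed, at chr2:121285203-121285452 on the minus strand, chr19:6464021-6464270 on the plus strand, chr2:237590735-237590984 on the minus strand and chr1:201399325-201399574 on the minus strand, each written 5′ to 3′ on the strand of its gene.
TFCP2L1: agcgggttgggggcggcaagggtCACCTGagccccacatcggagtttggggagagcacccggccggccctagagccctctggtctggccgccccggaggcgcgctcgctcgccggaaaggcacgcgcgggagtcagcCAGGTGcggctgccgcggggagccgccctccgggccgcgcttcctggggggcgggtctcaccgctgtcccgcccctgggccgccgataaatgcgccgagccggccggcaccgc
CRB3: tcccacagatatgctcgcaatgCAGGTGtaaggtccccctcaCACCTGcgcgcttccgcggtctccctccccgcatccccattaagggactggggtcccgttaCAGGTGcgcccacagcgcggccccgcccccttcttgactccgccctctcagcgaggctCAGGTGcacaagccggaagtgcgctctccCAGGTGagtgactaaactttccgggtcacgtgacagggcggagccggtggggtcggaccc
RAB17: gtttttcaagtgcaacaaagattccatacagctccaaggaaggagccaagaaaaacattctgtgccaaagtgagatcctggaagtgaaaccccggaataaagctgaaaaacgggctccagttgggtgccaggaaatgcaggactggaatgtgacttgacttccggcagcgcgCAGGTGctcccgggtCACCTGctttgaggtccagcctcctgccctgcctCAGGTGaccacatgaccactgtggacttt
LAD1: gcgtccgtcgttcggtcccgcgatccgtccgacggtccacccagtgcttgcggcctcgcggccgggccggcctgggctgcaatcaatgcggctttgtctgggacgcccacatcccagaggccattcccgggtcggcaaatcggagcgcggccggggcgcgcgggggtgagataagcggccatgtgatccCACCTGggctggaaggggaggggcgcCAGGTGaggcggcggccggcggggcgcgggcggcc
TFCP2L1, an epithelial CP2-family factor, was 185 and 166 against 8694 and 9196 and had 2 matches; CRB3 had 5, RAB17 3 and LAD1 2.

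The proteases and protease inhibitors of stratified and glandular epithelia were lower as well. Of 19 (of 28 listed) membrane-anchored serine proteases and their inhibitors 12 were lower and 4 higher; of the 9 with a mean of 10 in both lines, 5 were lower and 2 higher. ST14, the gene of matriptase, was 3 and 2.19 against 7925 and 8049, 3335-fold lower. PRSS8, prostasin, which matriptase activates, was 3 and 2.19 against 919 and 859, 362-fold lower. SPINT2, the Kunitz inhibitor of both, was 48 and 44.9 against 16020.0 and 15915, 349-fold lower. Enzyme, substrate and inhibitor were thus all lower by more than 2 orders of magnitude; PRSS23 was higher at 2541 and 2604 against 76.8 and 69.7. Of 10 (of 15 listed) kallikreins tested, secreted proteases of the skin surface, 9 were lower, and the number with a mean of 10 in both lines was 0. KLK7, which cleaves corneodesmosomes, was 0 in both libraries labelled HT-29 and 925 and 868 in MCF10A, at least 732-fold lower. KLK10 was 7.5 and 7.11 against 3416 and 3127, 442-fold lower. Of 9 (of 13 listed, in both lines 4 lower of 6) clade B serpins, mostly intracellular proteins, 6 were lower. SERPINB5, maspin, was 30 and 8.21 against 32457 and 32822, 2334-fold lower, and it is 1 of the 7 genes of the low-read check. SERPINB13 was 0 in both libraries labelled HT-29 and 639 and 657 in MCF10A, at least 543-fold lower.

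The epidermal differentiation complex, a cluster on 1q21 of cornified envelope and S100 genes, had 20 members lower and 3 higher of 31 (of 42 listed) tested (median -3.14). Many passed the filter through MCF10A alone, and of the 15 with a mean of 10 in both lines, 5 were lower and 3 higher. With the MCF10A libraries summed as 1 sample, members that reached the filter in MCF10A alone were no longer tested, so that setting cannot show whether their calls hold. SPRR1B, a cross-linked envelope precursor, was 3 and 0 against 8926 and 8703, a ratio of 10912-fold (3020.3 to 90107). IVL, involucrin, was 0 and 0.547 against 296 and 259.7, 667-fold (119 to 26364) lower. S100A14 was 7.5 and 4.38 against 43947 and 43464, 8358-fold lower. The S100 members did not go together: S100A4, a calcium-binding protein of motile cells, was 2679 and 2609 against 624 and 611, 4.28-fold higher, and S100A8 was 984 and 962 against 1644 and 1657 with a log2 fold change of -0.76, short of a call. Gap junction genes went both ways, with 7 lower and 3 higher of 14 (of 21 listed; in both lines 2 higher and 4 lower of 9); GJB2, GJB5 and GJA5 were among the lower and GJA1 among the higher. GJB5, a connexin of skin, was 61.5 and 44.3 against 2923 and 2911, 59.6-fold lower. GJA1, connexin 43, was 69 and 44.3 against 1.87 and 0.491, a ratio of 65.5-fold (17.8 to 546) on 2 MCF10A reads.

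Genes of neurons were mostly higher in the libraries labelled HT-29. Of 26 (of 33 listed) tested genes of the neuronal cytoskeleton and growth cone 17 were higher and 2 lower, with a median log2 fold change of 3.37 (3.36 with genes at 0 set to their bound). In this group of the 21 with a mean of 10 in both lines, 12 were higher and 2 lower. UCHL1, the neuronal ubiquitin hydrolase, was 11500.0 and 11324 in the libraries labelled HT-29 and 22.5 and 16.2 in MCF10A, 649.6-fold higher with limma's adjusted p of 0.00024. DPYSL4, a collapsin response mediator that links guidance cues to tubulin, was 1724 and 1626 against 3.75 and 1.47, 849-fold higher. NEFL, the light neurofilament, was 1004 and 946 against 0 and 0.491, a ratio of 2472-fold (443 to 97667). CRMP1 and BASP1, which act in growth cones, were higher from a base that MCF10A also held: CRMP1 was 3960.2 and 3719 against 105 and 112 and BASP1 9119 and 9437 against 1089.8 and 1142. The tubulin gene TUBB3, often read as neuronal, did not share this, at 5028 and 4678 against 4788 and 4691, and ELAVL2, a neuronal RNA-binding protein, was lower at 82.5 and 79.3 against 534 and 577; TUBB3 was picked after its values were seen.

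Vesicle release genes went the same way. Of 33 (of 43 listed) tested 26 were higher and 2 lower (median 3.24); among 16 present at a mean of 10 in both lines the counts were 10 and 1. RAB3B, a GTPase of secretory vesicles, was 1385 and 1411 against 0 and 0.491, a ratio of 3609.6-fold (647 to 142610.0). SYT11, a synaptotagmin, was 1215 and 1202 against 0 and 1.96, 775-fold higher. SNAP25, a t-SNARE of exocytosis, was 155 and 144 against 0 and 0.491, a ratio of 378-fold (67.5 to 14981). The vesicle phosphoprotein genes split: SYN2 was 255 and 220.0 against 0 and 0.491, whereas SYN3 was 1.5 and 3.28 against 182 and 158, 57.9-fold lower. SYP, the gene of synaptophysin, was 43.5 and 47.1 against 31.8 and 20.1, a log2 fold change of 0.81 that missed the call. Of 35 (of 58 listed) neurotransmitter receptor genes tested 26 were higher and 3 lower; of the 13 with a mean of 10 in both lines, 9 were higher and 1 lower. GRIK3, a kainate receptor subunit, was 138 and 159 against 0 in both MCF10A libraries, at least 131-fold higher. ADRA1B, an α1 adrenoceptor, was 357 and 334 against 0 and 0.982. The neuronal genes with the largest folds were thus at or near 0 in MCF10A. Genes with symbols starting with KCN, mostly of potassium channels but with the noncoding KCNQ1OT1 among the lower, had 40 higher and 11 lower of 59 (of 98 listed), but of the 19 with a mean of 10 in both lines, 7 were higher and 6 lower. KCNMA1, the large calcium-activated channel, was 2028 and 1987 against 9.36 and 13.3, 161-fold higher. Many members of these groups were of low level. With only genes of at least 10 CPM, 13 synaptic, 7 receptor and 8 potassium channel genes were higher. The members tested and lower at that filter are not given for these groups. Over all 11138 genes tested at that filter 2209 were higher and 2181 lower, and no share of the groups was set against this. The group counts therefore cannot show whether the groups differed from all genes there.

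Axon guidance genes went both ways among ligands and among receptors. Of 47 (of 51 listed; in both lines 17 higher and 10 lower of 35) tested 29 were higher and 10 lower (median 1.44). NTN1, netrin 1, was 2667 and 2545 in the libraries labelled HT-29 and 1.87 and 1.96 in MCF10A, 1326-fold higher. SEMA3D was 153 and 175 against 0 in both MCF10A libraries, at least 145-fold higher. SEMA3C, a ligand for neuropilins and plexins, was abundant in both at 10765 and 11191 against 3929 and 4143, 2.7-fold higher. SEMA3F, another ligand, was lower at 1077 and 1008 against 3728 and 3554. The receptors PLXNB1, PLXNA2 and NRP2 were lower, NRP2 by 12.3-fold at 326 and 283 against 3698 and 3584, and the receptor PLXNA4 was higher at 272 and 237 against 1.87 and 0.491. Adhesion molecules of the immunoglobulin type, which bind cells to like cells, had 19 higher and 11 lower of 36 (of 42 listed; in both lines 11 higher and 10 lower of 27). L1CAM, a neural adhesion molecule, was 15623 and 15039 against 655 and 658, 23.1-fold higher. CADM1 was 2721 and 2647 against 1.87 and 0.491, a ratio of 3428-fold (949 to 28309). NCAM1 was 1103 and 1160.0 against 13.1 and 7.86, 128-fold higher, while PVRL1, nectin 1 of epithelial adherens junctions, was 866 and 783 against 18774 and 18814, 23.4-fold lower. Clustered protocadherins, which share 3′ exons so that their reads cannot be fully assigned, had 19 higher and 4 lower of 31 (of 53 listed; in both lines 3 higher and 0 lower of 8).

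**Figure D3:**
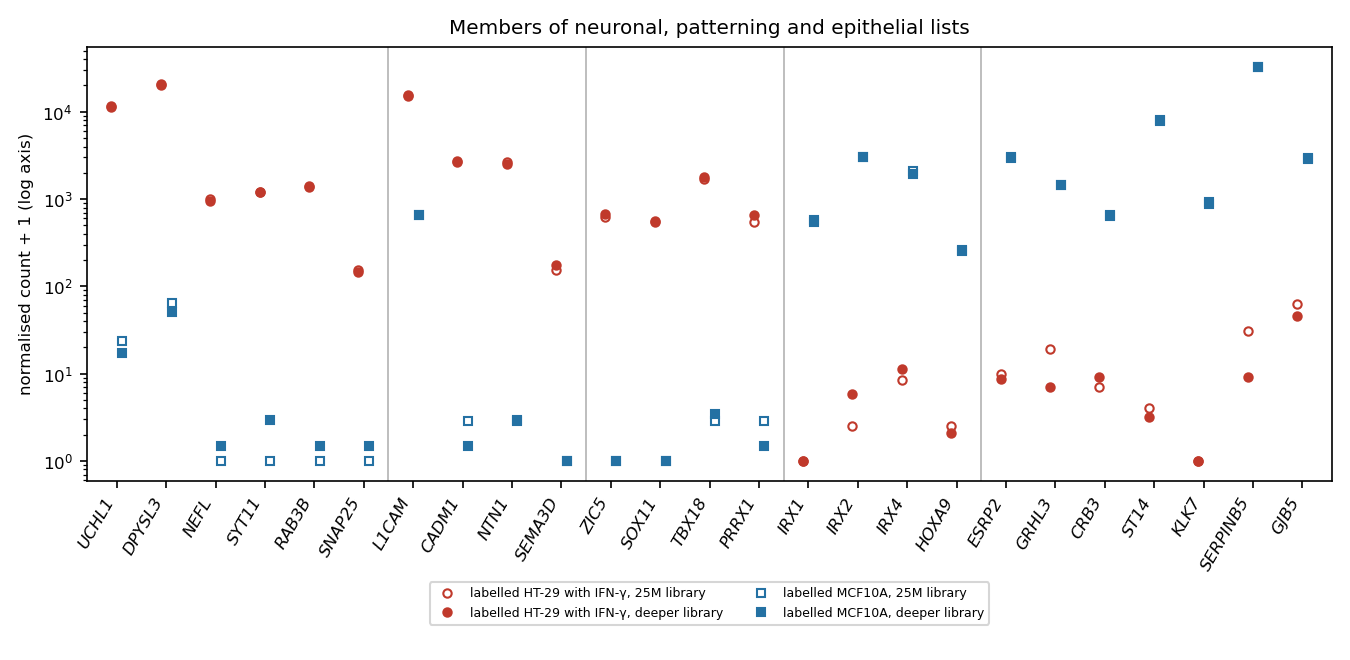
Normalised count plus 1 (log axis) of 25 genes in the 4 libraries, grouped from left to right as neuronal and vesicle genes, adhesion and guidance genes, transcription factors higher in the libraries labelled HT-29, patterning factors lower in them, and epithelial genes. The 2 lines do not overlap for any gene drawn, as held for every called gene. NEFL, RAB3B and SNAP25 lie at 0 and 0.491 in MCF10A, and IRX1 and KLK7 at 0 in the libraries labelled HT-29.

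Transcription factors that pattern the embryo went both ways. The 32 (of 39 listed) HOX genes tested had 14 lower and 11 higher, and a median of 0.03 whose sign changed with the scaling; of the 18 with a mean of 10 in both lines, 11 were lower and 2 higher. HOXA9 was 1.5 and 1.09 against 258 and 253, a ratio of 211-fold (71.9 to 1027). HOXA5 was 79.5 and 89.7 against 1618 and 1546, 17.9-fold lower. HOXB2 was 3 and 4.38 against 193 and 175, 44.6-fold lower, and HOXB7, of the same cluster, was 119 and 147 against 0 in both MCF10A libraries, at least 119.6-fold higher. HOXD4 and HOXD8 were higher too: HOXD4 was 279 and 297 against 0 and 0.491, and HOXD8 was 149 and 136 against 0 in both MCF10A libraries, at least 119-fold higher. Among 79 (of 89 listed) mesodermal and neural crest factors 43 were higher and 13 lower; of the 50 with a mean of 10 in both lines, 18 were higher and 10 lower. The Iroquois genes, which pattern organ territories and share a cluster, were among the lowest: IRX1 was 0 in both libraries labelled HT-29 and 575 and 548 in MCF10A, at least 460.2-fold lower. IRX2 was 1.5 and 4.92 against 3052 and 3019, 755-fold lower. IRX4 was 7.5 and 10.4 against 2079 and 1944, 205-fold lower. Higher members included PRRX1, a factor of limb and craniofacial mesenchyme, at 551 and 648 against 1.87 and 0.491. TBX18, a T-box factor of the heart and somites, was 1719 and 1795 against 1.87 and 2.45, 761-fold higher. SOX11 and ZIC5, factors of neural progenitors, were both without a read in MCF10A: SOX11 was 559.5 and 551 in the libraries labelled HT-29 (at least 474-fold higher) and ZIC5 621 and 673 (at least 565-fold higher). TWIST1, a mesenchymal regulator, was present in both lines at 1508 and 1534 against 768 and 797. Its log2 fold change of 0.96 was short of a call by size, and limma's adjusted p was 0.086. That p-value rests on a spread shared by all 6 libraries, and within each of the 2 lines compared the values were close.

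Secreted signals and their receptors were next. Of 40 (of 48 listed; in both lines 7 higher and 5 lower of 27) genes of the BMP and activin group 18 were higher and 6 lower. BMP7, a ligand, was 1206 and 1166 against 0 in both MCF10A libraries, at least 1008-fold higher. GDF5, another ligand, was 1404 and 1408 against 0 and 0.982, and GREM1, the antagonist gremlin, was 1776 and 1786 against 0 and 0.982. The ligands BMP2 and BMP4 were not called, with log2 fold changes of -0.56 and 0.98. ID1 and ID3, inhibitors of differentiation that BMP signalling induces, were lower. ID1 was 525 and 489.7 against 7711 and 7708, 15.4-fold lower, and ID3 was 126 and 136 against 4239.5 and 3977, 30.3-fold lower. The Hedgehog group had 9 higher and 2 lower of 16 (of 18 listed; in both lines 3 higher and 2 lower of 9). SMO, the signal transducer of that pathway, was 979.6 and 959.7 against 0 in both MCF10A libraries, at least 827-fold higher. SHH, its ligand, was 138 and 135 against 0 in both MCF10A libraries, and the effectors GLI1 and GLI2 were 79.5 and 87.5 and 354 and 319.6 against 3.75 and 0.982 and 13.1 and 3.44. Ligand, transducer and both effectors were thus higher, while GLI3, a further effector, was lower at 739.5 and 721 against 1644 and 1711, a call lost when libraries were scaled by size alone (log2 fold change -0.89 in place of -1.20).

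Of 45 (of 57 listed; in both lines 13 higher and 10 lower of 33) Wnt genes tested 24 were higher and 10 lower. RSPO3, an R-spondin that amplifies Wnt signals, was 269 and 305 against 0 and 0.491, a ratio of 759-fold (136 to 30004). AXIN2, a target and inhibitor of the β-catenin branch, was 216 and 230.4 against 1.87 and 3.44, 72.8-fold higher. RNF43, which removes Wnt receptors from the surface, was 30 and 24.6 against 320.2 and 293, 11.4-fold lower. WNT5A, a ligand of the non-canonical branch, was 1737 and 1773 against 112 and 104, 16.7-fold higher, and so was its receptor ROR2 at 347 and 326 against 0 in both MCF10A libraries. Notch genes had 9 higher and 9 lower of 32 (of 34 listed; in both lines 3 higher and 8 lower of 25); NOTCH1 was 1191 and 1223 against 5181 and 5264, 4.32-fold lower, with its ligand JAG2 lower too. Receptor tyrosine kinases and their ligands had 32 higher and 7 lower of 51 (of 61 listed; in both lines 13 higher and 5 lower of 30). FGFR1, the mesenchymal FGF receptor, was 3077 and 2943 against 640.4 and 650.0, 4.6-fold higher, and FGFR3 was 162 and 181 against 3539 and 3504, 20-fold lower. FLT4, the receptor of lymphatic growth factors, was 1203 and 1162 against 0 and 0.982, and NTRK2, the receptor of brain-derived neurotrophic factor, was 246 and 271 against 0 in both MCF10A libraries. MET, the hepatocyte growth factor receptor, was abundant in both at 5672 and 5798 against 7468 and 7688. The insulin-like growth factor axis had 9 higher and 3 lower of 19 (of 23 listed, in both lines 4 higher and 3 lower of 14). IGFBP5 was 1274 and 1288 against 0 in both MCF10A libraries, at least 1100.1-fold higher. IGF2BP1, an oncofetal RNA-binding protein, was 1863 and 1805 against 3.75 and 0.982, 1169.9-fold higher. The 3 lower were HTRA1, IGF2BP2 and INSR, with log2 fold changes of -3.19, -2.61 and -1.41. IGF1R (-0.33) and IGF2BP3 (0.73) were not called.

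Several differences followed the order of genes along a chromosome, read from RefSeq GRCh38.p14 names because the files use hg19 and carry no positions. On 9p21 4 neighbouring genes were at or near 0 in MCF10A. MTAP, the enzyme that salvages methylthioadenosine, was 1789.6 and 1818 in the libraries labelled HT-29 and 0 and 2.45 in MCF10A. CDKN2A, which encodes the cell cycle inhibitor p16, was 4781 and 4509.8 against 0 and 1.47, a ratio of 3927-fold (1343 to 19044). CDKN2B, the gene of p15, was 548 and 503 against 0 in both MCF10A libraries, and the antisense transcript CDKN2B-AS1 was 67.5 and 68.9 against 0 in both. On one side of the 4 genes MIR31HG was measured in MCF10A at 112 and 96.2 against 27 and 41 in the libraries labelled HT-29, and on the other DMRTA1 was 15 and 15.2 against 60 and 51.4. Further out, IFNB1 and PTPLAD2 were also at or near 0 in MCF10A, with KLHL9 between them and MIR31HG at 1118 and 1138 against 500.0 and 579.8. The stretch at or near 0 in MCF10A was thus bounded on both sides by genes with reads there; CDKN2B-AS1, MIR31HG, DMRTA1, KLHL9 and PTPLAD2 were named for their position after their values were seen, copy number was not measured, and in the libraries labelled MDA-MB-436 MTAP was 4517 and 4582.

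RB1, the retinoblastoma gene on 13q14, was 224 and 235 in the libraries labelled HT-29, against 4754 and 4891 in MCF10A and 4930.5 and 4863 in those labelled MDA-MB-436, 20.9-fold lower than in MCF10A with a log2 fold change of -4.39 ± 0.0394 (SE) and limma's adjusted p of 1.6e-10. LPAR6, which lies inside an intron of RB1, was 3 and 1.09 against 320.2 and 333, 206-fold lower. ITM2B, the neighbour before RB1, was 4365 and 4185 against 10290.0 and 10194, 2.41-fold lower (a log2 fold change of -1.26, or -0.95 and not called with scaling by size alone), and RCBTB2, the one after it, was 131 and 115 against 167 and 177 with a log2 fold change of -0.48, not called. Of 26 (of 32 listed; in both lines 11 lower of 23) tested genes listed around RB1 13 were lower and 1 higher (median -1.04), the exception being LCP1, plastin of leukocytes, at 61.5 and 73.3 against 7.49 and 6.87. The whole of chromosome 13 lay low: of 215 genes that reached a mean of 10 in both lines 84 were lower (39.1%) and 12 higher (5.58%). The median of chromosome 13 was -0.845, the lowest of the chromosomes ranked, which left out any with few such genes. Over all 12168 such genes placed, 18.4% were lower and 18.9% higher, with a median of -0.0394. RB1 therefore lay far under its chromosome. Of the chromosomes ranked, those with the highest medians were X (0.575 over 383 genes), 9 (0.492 over 503) and 15 (0.429 over 400).

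On Xq22 the ARMCX, BEX and TCEAL genes, small related genes that arose by duplication and include mitochondrial ARMCX proteins, had 17 of 22 (of 26 listed) tested members higher (median 5.08). ARMCX3 was 5015 and 5055 in the libraries labelled HT-29 and 0 and 1.96 in MCF10A, 3242-fold higher. ARMCX6 was 884 and 881 against 0 in both MCF10A libraries, at least 756-fold higher. BEX1, a brain-expressed adaptor named here for its position, was 666 and 721 against 0 in both. These 3 were at or near 0 in MCF10A, yet genes beside them were not: ARMCX5 was 669 and 663 against 339 and 361, NGFRAP1 was 3606 and 3436 against 2640.3 and 2618, and TCEAL4 was 2517 and 2566 against 1783 and 1715, none of them called; these 3 and BEX1 were picked after their values were seen. Of the 8 members with a mean of 10 in both lines 3 were higher.

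**Figure D4:**
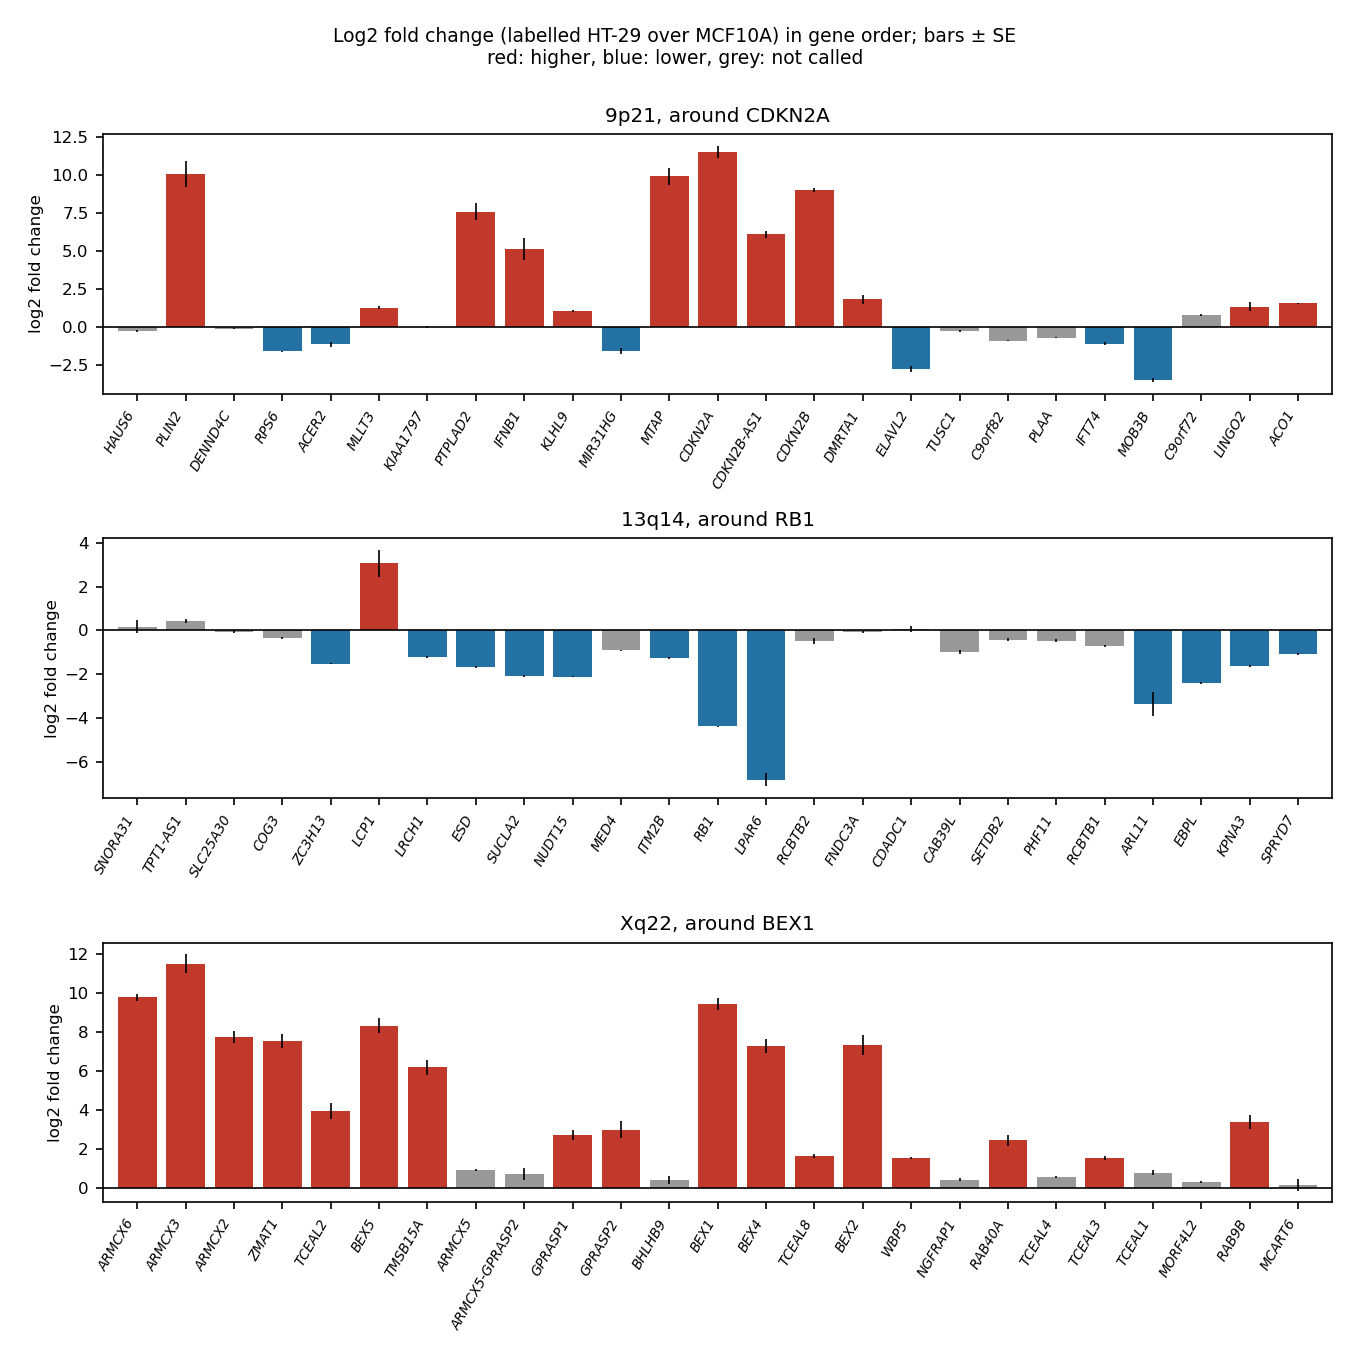
Log2 fold change (libraries labelled HT-29 over MCF10A, with SE bars) of the 12 tested neighbours on each side of CDKN2A, RB1 and BEX1, in RefSeq gene order; red is higher, blue lower and grey not called. On Xq22 NGFRAP1, at a log2 fold change of 0.42, lies in the same stretch as BEX1 at 9.44.

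Imprinted genes, expressed from 1 parental copy, and zinc finger genes also held members at or near 0 in 1 line. Of 24 (of 31 listed; in both lines 3 higher and 4 lower of 15) imprinted genes tested 11 were higher and 5 lower. NDN, the gene of necdin, was 1605 and 1546 against 0 and 0.491, a ratio of 4015-fold (720.1 to 158610.0). PEG3 was 758 and 787 against 0 in both MCF10A libraries, at least 668-fold higher. In the other direction KCNQ1OT1, a noncoding RNA of 11p15, was 0 and 1.09 against 133 and 108, a ratio of 142-fold (38.9 to 1175), and H19 was 31.5 and 24.6 against 315 and 329, 12.3-fold lower. Genes with ZNF symbols had 167 higher and 34 lower of 477 (of 531 listed), and 110 and 30 of the 414 at a mean of 10 in both lines. ZNF542 was 773 and 782 against 0 in both MCF10A libraries, at least 668-fold higher. Regulators of DNA methylation and chromatin had 16 higher and 4 lower of 50 (of 53 listed; in both lines 16 higher and 4 lower of 50). HDAC9, a class IIa histone deacetylase, was 2217 and 2252 against 46.8 and 46.6, 48-fold higher. SMARCA1, an ISWI remodelling ATPase, was 2681 and 2732 against 105 and 127, 22.2-fold higher.

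In the RB1-E2F group 11 of 45 (of 45 listed; in both lines 4 higher and 11 lower of 43) genes were lower and 6 higher, with a median of -0.28 that became 0.03 when libraries were scaled by size alone, where 6 were lower. The 2 largest differences upwards were CDKN2A and CDKN2B, given above, and the largest downwards was RB1. CDKN1A, the inhibitor p21, was 1554 and 1562 against 7745 and 7637, 4.91-fold lower. CDK6, a kinase that p16 inhibits, was 1361 and 1476 against 5223 and 5505, 3.77-fold lower. E2F1, which RB1 binds, was 3455 and 3399.6 against 1056 and 1066, 3.21-fold higher, and CCND1, cyclin D1, was 7459.9 and 7388 against 10404 and 10575, a log2 fold change of -0.50. The inhibitors p16 and p21 thus stood on opposite sides.

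Genes of the extracellular matrix and its receptors went both ways. The ADAMTS proteases, which cut proteoglycans and collagen propeptides, had 15 of 16 (of 19 listed; in both lines 5 higher of 6) tested members higher. ADAMTS9 was 1376 and 1283 against 20.6 and 10.3, 105-fold higher. ADAMTS2, which processes procollagen, was 642 and 642 against 0 and 2.95, 275-fold higher, and COL5A1, a fibrillar collagen chain, was 7668 and 7750.1 against 1.87 and 5.89, 1528-fold higher. Of 50 (of 59 listed; in both lines 12 higher and 8 lower of 37) proteoglycans and their enzymes 21 were higher and 11 lower. The small proteoglycans BGN and DCN were opposite: BGN, biglycan, was 9868 and 9016 against 11.2 and 8.35, and DCN, decorin, was 0 in both libraries labelled HT-29 and 193 and 157 in MCF10A. Syndecans were opposite too, with SDC2 at 2252 and 2430.5 against 5.62 and 5.4, 438-fold higher, and SDC1, the epithelial syndecan, at 2295 and 2291 against 18417 and 18534, 8.08-fold lower. Integrin chains had 8 higher and 7 lower of 23 (of 27 listed; in both lines 2 higher and 5 lower of 14). ITGA6 and ITGB4, the hemidesmosomal pair, were both lower, ITGB4 at 8057 and 7742 against 35257 and 35321, 4.51-fold lower. ITGA4, a chain that binds VCAM1, was 1523 and 1571 against 3.75 and 3.93, 401-fold higher. ITGB1, the common chain, was 11524 and 11659 against 15981 and 16029, a log2 fold change of -0.47.

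Caveolae and targets of YAP and TEAD had 11 lower and 5 higher of 32 (of 32 listed; in both lines 5 higher and 10 lower of 31), and a median of -0.10 whose sign changed with the scaling. SDPR, the caveolar protein cavin 2, was 3 and 2.74 against 3217 and 3179, 1136-fold lower. EHD2, an ATPase at caveolar necks, was 24 and 26.8 against 10932 and 10809, 416-fold lower. CAV1, caveolin 1, was present in both lines at 10268 and 10321 against 41393 and 41772, 4.05-fold lower. CYR61, a YAP target, was 1614 and 1584 against 389 and 393, 4.06-fold higher, and CTGF, another, was 378 and 369 against 170.4 and 228, a log2 fold change of 0.92 short of a call. The caveolar genes given here were thus lower, and of the other members of the list CYR61 was higher and F3 lower.

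Metabolic groups lay nearer to the background, with single enzymes far from it. One-carbon, methionine and branched-chain amino acid enzymes had 12 higher and 10 lower of 43 (of 44 listed; in both lines 7 higher and 9 lower of 36). BCAT1, the cytosolic branched-chain aminotransferase, was 3737 and 3914 against 0 in both MCF10A libraries, at least 3314-fold higher. BHMT2, a methionine-forming methyltransferase, was 3435 and 3293 against 0 and 0.491, a ratio of 8563-fold (1536 to 338270.0). NNMT, which methylates nicotinamide, was 273 and 299 against 9284 and 9100.4, 31.3-fold lower. Glutathione and NRF2 genes had 13 higher and 7 lower of 44 (of 49 listed; in both lines 10 higher and 6 lower of 39); here too transferases were exchanged. GSTM3 was 1293 and 1214 against 0 in both MCF10A libraries, at least 1059-fold higher. GSTP1 was 8010.5 and 7674 against 83670.0 and 81292, 10.5-fold lower. AKR1C2, an aldo-keto reductase of steroids, was 13.5 and 13.7 against 1550.5 and 1613, 117-fold lower, though its reads may be shared with near-identical family members. NQO1, an NRF2 target, was 9589 and 9653 against 4324 and 4138, 2.31-fold higher, and the cystine carrier SLC7A11 was 2355 and 2532 against 2004 and 1989.8, a log2 fold change of 0.29.

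Among 35 (of 39 listed; in both lines 6 higher and 6 lower of 20) eicosanoid genes tested 16 were higher and 11 lower. The cyclooxygenases were opposite: PTGS2, the inducible enzyme, was 702 and 692 against 69.3 and 89.8, 8.11-fold higher, and PTGS1, the constitutive one, was 67.5 and 68.9 against 554 and 584, 8.43-fold lower. The lipoxygenases were opposite as well: ALOX5, the first enzyme of leukotriene synthesis, was 197 and 193 against 0 and 0.491, and ALOX15B was 6 and 3.83 against 4453 and 4388, 998-fold lower. PTGES, prostaglandin E synthase, was 3799.7 and 3717 against 32101 and 31539, 8.47-fold lower. Retinoid genes had 14 higher and 5 lower of 26 (of 31 listed; in both lines 5 higher and 4 lower of 16). ALDH1A3, which makes retinoic acid, was 20862 and 20491 against 1833 and 1832, 11.2-fold higher; STRA6, the retinol importer, was 2244 and 2058 against 20.6 and 29.5; and RARB, a receptor that retinoic acid induces, was 413 and 432 against 5.62 and 3.93, 99.7-fold higher. RARG, the receptor of stratified epithelia, was 559.5 and 566 against 2880.0 and 2748, 4.92-fold lower. SDR16C5, a retinol dehydrogenase, was 25.5 and 21.3 against 416 and 391, 17.7-fold lower, and LRAT, which stores retinol as an ester, was 78 and 73.3 against 213 and 259, 3.34-fold lower.

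Fatty acid and lipoprotein genes had 22 higher and 15 lower of 55 (of 59 listed; in both lines 11 higher and 13 lower of 42). FASN, fatty acid synthase, was 10412 and 9949.7 against 34676 and 34348, 3.42-fold lower. VLDLR, a lipoprotein receptor, was 2117 and 2169.5 against 5.62 and 2.95, 616-fold higher. PLIN2, which coats lipid droplets, was 3917 and 3714 against 7.49 and 0.491, 1938-fold higher. The synthetic genes FASN, SCD and ELOVL6 were lower together, SCD at 13066 and 13090.0 against 30572 and 31004, although SCD was not called with scaling by size alone (-0.92 in place of -1.24). ATF4 and unfolded protein response genes had 11 higher and 5 lower of 34 (of 34 listed; in both lines 10 higher and 5 lower of 33). DDIT3, the stress factor CHOP, was 1923 and 1840.1 against 97.4 and 92.3, 19.9-fold higher. ATF3 was 3177 and 3177 against 93.6 and 85.9, 36.3-fold higher, whereas DDIT4, an inhibitor of mTORC1 that glucocorticoids also induce, was 2531 and 2389 against 31199 and 30976, 12.8-fold lower. Of the 2 media only that of MCF10A held hydrocortisone, and medium and line cannot be told apart. Lysosomal genes had 15 higher and 7 lower of 48 (of 52 listed; in both lines 13 higher and 6 lower of 45), with CTSS, cathepsin S of antigen processing, at 1553 and 1612 against 30 and 29, 54.7-fold higher, and CSTA, the epidermal inhibitor cystatin A, at 15 and 13.1 against 6436 and 6662, 485-fold lower. Of 53 (of 55 listed) oxidative phosphorylation subunits 9 were lower and 1 higher, and all 53 had a mean of 10 or more in both lines; the 1 higher was NDUFA9 at 9763 and 9791 against 4266 and 4152. Scaling by size alone turned these counts into 5 lower and 6 higher, so no direction is given for the subunits.

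Interferon-stimulated genes were higher as a group. Of 51 (of 51 listed) tested 41 were higher and 4 lower, with a median log2 fold change of 3.86; of the 39 at a mean of 10 in both lines 31 were higher and 2 lower. IFI6, a mitochondrial protein induced by type I interferon, was 19924 and 20123 in the libraries labelled HT-29 and 18.7 and 33.9 in MCF10A, 653-fold higher with a log2 fold change of 9.58 ± 0.27 (SE) and limma's adjusted p of 2.7e-06. RSAD2, the antiviral enzyme viperin, was 2718 and 2787 against 3.75 and 4.42, 647-fold higher. MX1, an antiviral GTPase, was 1319 and 1284 against 7.49 and 5.4, 222-fold higher. Genes closely tied to IFN-γ were far lower in the libraries that carry the IFN-γ label than in those labelled MDA-MB-436: CIITA was 54 and 39.4 there, 0 and 1.47 in MCF10A and 8790.4 and 8894 in the libraries labelled MDA-MB-436. HLA-DRA, a class II gene under CIITA, was 125 and 146, 1.87 and 0.982 and 20963 and 21754 in the same order. IDO1, a tryptophan-degrading enzyme, was 7.5 and 13.7 in the libraries labelled HT-29, 0 in both MCF10A libraries and 1291 and 1261 in those labelled MDA-MB-436. IRF1 was 2234 and 2194, 393 and 414 and 79637 and 79442. These 4 were highest in the libraries that also held the intestinal markers; CIITA, HLA-DRA, IDO1 and IRF1 were picked after their values were seen.

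The 4 lower members were IFITM2, TRIM22, EPSTI1 and, named after its value was seen, IFIT5; EPSTI1 was not called at CPM + 1 with scaling by size (-0.60) or TMM (-0.68), where 1 CPM stands for about 30 normalised counts. IFITM2, which blocks viral entry, was 9 and 9.85 against 10550.0 and 10300.0, 1076-fold lower, although its reads may be shared with IFITM1 and IFITM3; IFITM3, picked after its values were seen, was 14230.0 and 12501 against 8318 and 8221 and not called. TRIM22 was 33 and 25.7 against 910.1 and 934, 33.6-fold lower. Sensors and interferon ligands and receptors had 15 higher and 8 lower of 41 (of 50 listed; in both lines 10 higher and 7 lower of 33). The cytosolic RNA sensors were higher together: DDX58, the gene of RIG-I, was 4316 and 4422 against 281 and 229, 18.3-fold higher, and IFIH1, the gene of MDA5, was 2606 and 2661 against 552 and 574, 4.65-fold higher. IL29, an interferon λ, was 78 and 91.4 against 0 in both MCF10A libraries, at least 75.2-fold higher. The surface receptors of bacterial products were exchanged, with TLR4 at 204 and 198 against 0 in both MCF10A libraries and TLR2 at 16.5 and 26.3 against 105 and 125, 5.11-fold lower. TMEM173, the gene of STING, was 1181 and 1177 against 1638 and 1660.4, a log2 fold change of -0.48.

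**Figure D5:**
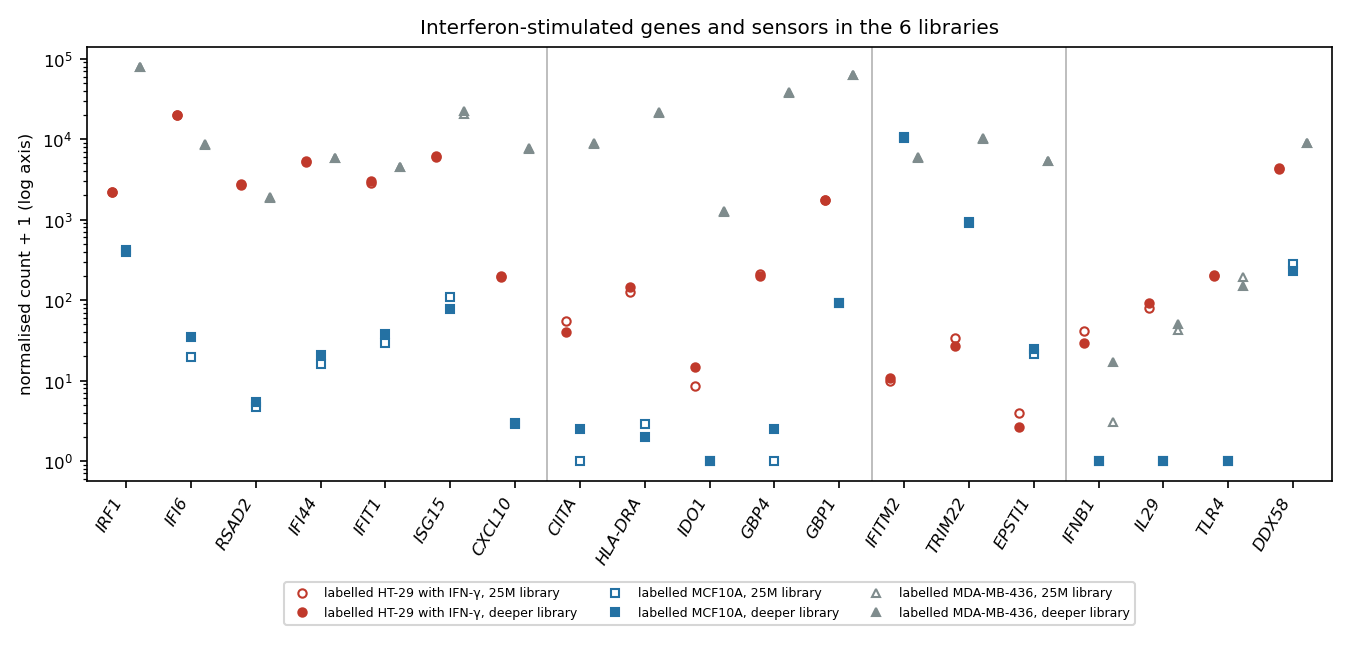
Normalised count plus 1 (log axis) of 19 interferon-stimulated genes, sensors and interferon ligands in the 6 libraries. CIITA, HLA-DRA, IDO1 and GBP4 are lower in the libraries labelled HT-29 than in those labelled MDA-MB-436, and IFITM2, TRIM22 and EPSTI1 are higher in MCF10A than in the libraries labelled HT-29.

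Cytokines and chemokines had 39 higher and 9 lower of 54 (of 60 listed) tested, with a median of 2.63; of the 30 with a mean of 10 in both lines, 20 were higher and 5 lower. IL6, the acute-phase cytokine, was 1328 and 1308 against 1.87 and 2.95, 482-fold higher. CCL2, which draws monocytes, was 2204 and 2125 against 3.75 and 4.42, 502-fold higher, and CCL5 was 1712 and 1820.4 against 3.75 and 1.96, 768-fold higher. IL8, the neutrophil chemokine, was 5226 and 5598 against 167 and 134, 39.1-fold higher. These 4 were all called higher, and their libraries did not overlap, as held for every called gene. IL20RB, a receptor chain for interleukins of the IL-10 family in skin, was 78 and 75.5 against 6054 and 5817, 77-fold lower. Coagulation, fibrinolysis and complement genes had 23 higher and 14 lower of 49 (of 57 listed; in both lines 16 higher and 10 lower of 35). C1R and C1S, the proteases of the C1 complex, were higher together: C1R was 32418 and 31546 against 54.3 and 48.6, 638-fold higher, and C1S was 28970.0 and 28128 against 30 and 18.2, 1375-fold higher. C3, the central complement protein, was 25392 and 24664 against 22763 and 22690.0, a log2 fold change of 0.14 ± 0.0395 (SE) that was too small to be called. F3, tissue factor, and THBD, thrombomodulin, which start and restrain clotting, were both lower, F3 at 281 and 271 against 4395 and 4339 and THBD at 203 and 173 against 3496 and 3502. PLAU, the protease urokinase, was higher at 7145 and 6948 against 886 and 840.0. Of the leukocyte, endothelial and blood markers 4 of 13 passed the filter, with 1 higher and 1 lower; the pan-leukocyte gene PTPRC was 6 and 2.19 in the libraries labelled HT-29 and 3.75 and 4.91 in MCF10A, and the T cell gene CD3D had no read in any of the 4.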

How the data were processed

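The analysis started from a normalised count (a signal scaled by size factors) and an RPKM value per gene and library, both deposited by the authors. Per the submitters' processing notes reads were handled with FastQC, STAR 2.2.0 and HTSeq on hg19; the strand setting is not given in the sources used here. The RPKM column deposited by the authors followed a different row order from the normalised counts in 3544 of 23368 rows (15.2%), so RPKM was not used. Whole reads were recovered from the deposited normalised counts: 100% of values were whole multiples of 1 read within 0.001 reads. The 28 rows with date-like names, 0.177% to 0.191% of the reads, were left out. The comparison used limma 3.58.1 (trend and robust settings, R 4.3.3) on log2(normalised count + 1) over all 6 libraries, for genes of at least 10 in at least 2 libraries, with Benjamini-Hochberg adjustment over all 15638; it was also tested on simulated data. The 2 libraries of a line differed by more than sampling noise (median chi-square 0.783 and 0.570, against 0.455 from sampling) and were kept as 2 samples.

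The gene lists and the genes named in the text were chosen with earlier results of these data known. The rule named the 12 called genes with the largest fold change in each direction (at least 20 CPM, no overlap), up to 3 called genes per list and direction, the first 3 of each list and a marker panel; some of these genes are not reported here. Promoter windows are from RefSeq (GRCh38.p14), and 22075 of 23340 names matched a RefSeq symbol or synonym. Alternatives covered the pseudocount, the filter, scaling, edgeR 4.0.16, DESeq2 1.42.0, a block for depth class, thinning, a test against a fold of 2, and leaving out each library.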

Additional observations from a re-analysis of the deposited data

How the results depend on the processing

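The main calls were 4442 higher and 2823 lower. Other settings gave 4436 and 2803 with a pseudocount of 0.5, 4004 and 2624 with 10, 5470 and 2983 without a filter, and 4256 and 2746 from the 4 libraries alone. A minimum of 10 CPM moved the higher count to 2209 (2181 lower), since fewer genes were tested. Scaling by library size alone at CPM + 1 moved the lower count to 1608 (4113 higher, 71.9% of calls), and TMM at CPM + 1 gave 2986 and 2623 (53.2%). On the scale of the normalised counts, alternatives chosen after seeing the data, the counts were 5376 and 1994 for library size and 4216 and 3094 for TMM. The edgeR quasi-likelihood test gave 4268 and 3098, DESeq2 4309 and 2745, thinning to equal depth 4324 and 2760, MCF10A summed as 1 sample 4364 and 2574, and a test against a fold of 2 gave 3599 and 2216. Leaving out 1 library at a time gave 4261 to 4441 higher and 2729 to 2817 lower; a line left with 1 library was assumed to vary like the others. The libraries share a depth class but nothing in the labels pairs them, and the deviations of same-class libraries correlated by -0.00282, 0.0276 and 0.00731 across genes; with depth class as a replicate block 4451 were higher and 2820 lower, and SFRP1 lost its call (limma's adjusted p 0.0305 without the block and 0.0504 with it). Of the named genes only GABRP changed sign, from -1.64 to 0.0086 after thinning; the cause was not tested. Medians of the HOX, caveolar, RB1-E2F, one-carbon and leukocyte, endothelial and blood groups, and of genes with GALNT and ARHGEF symbols, changed sign under at least 1 scaling. Genes under 3 reads in a line carry the depth limit, and their folds are bounds or wide intervals.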

Other observations

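The low reads of abundant MCF10A genes were measured in every other library. KRT5 was 236 and 77.2 in the libraries labelled HT-29 against 424100.0 and 416180.0 in MCF10A, and 124 and 3.7 in the libraries labelled MDA-MB-436. KRT81 was 88.5 and 1.64, 235970.0 and 231210.0 and 67.9 and 18.5 in the same order, and KRT14 was 91.5 and 2.74, 225570.0 and 219000.0 and 84.4 and 0.616. In both other lines the 25M library held the higher value of each of these 3 keratins. For the reverse direction, 7 genes abundant in the libraries labelled HT-29 had a median of 0.0246% of that level in the 25M MCF10A library and 0.0636% in the deeper one, so there the deeper library was the higher.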
